A study of Mus musculus with 8 samples.

Results

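The genes described here are the 10 that load peptides onto MHC class I molecules or make the immunoproteasome, out of the 55801 genes in the expression table. They were chosen by name, as genes of this pathway, with earlier results of these data known: the heavy chains H2-K1 and H2-D1, the light chain B2m, the peptide transporter genes Tap1 and Tap2, the peptide editor Tapbp, the inducible proteasome subunits Psmb8, Psmb9 and Psmb10, and the transcriptional regulator Nlrc5. Every symbol occurred once in the table, and all 10 genes were among the 12189 that were tested.

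RNA was measured in primary peritoneal macrophages of male C57BL/6 mice of 6 to 8 weeks, collected 72 h after an injection of thioglycollate, which draws macrophages into the abdominal cavity. The 4 groups had 2 samples each, 8 in all. NC cells received the vehicle DMSO, LPS cells received lipopolysaccharide, an outer membrane molecule of Gram-negative bacteria, at 100 ng/ml for 4 h, C498 cells received the small molecule C498 at 15 µM, and C498+LPS cells received C498 for 0.5 h before LPS. The study asked how C498 changes the inflammatory response of these cells to LPS. The labels name no transgene or deletion, and the 4 groups share strain, sex, age range and thioglycollate treatment. The labels do not say that the 2 samples of a group came from different mice or cultures, so every p measures only the spread between these samples, which may be technical.

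MHC class I molecules display short peptides from inside the cell to CD8 T cells. The proteasome cuts proteins into peptides, the TAP1 and TAP2 proteins together pump them into the endoplasmic reticulum, tapasin (the product of Tapbp) holds empty class I molecules beside the transporter and helps them take up peptides that bind tightly, and the heavy chain with its peptide and beta-2 microglobulin then moves to the cell surface. In cells exposed to interferons the catalytic subunits Psmb5, Psmb6 and Psmb7 of newly made proteasomes give way to Psmb8, Psmb9 and Psmb10, which changes the peptides that are cut. NLRC5 is known as the transactivator of class I genes, and macrophages are known to express this machinery at rest.

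The values are TPM levels, which correct reads for the length of the gene and give each sample the same total. A level is thus a share of its sample, so a difference between samples can depend on how they are scaled. The depth of the libraries is unknown from such values. Changes are differences of log2(TPM + 1), or folds on that scale, fitted with limma over all tested genes. A gene passed the test if its p, adjusted by the Benjamini-Hochberg method over the 12189 tested genes, was at most 0.05, and was a DEG if the fold change was also at least 2. With 2 samples against 2, the smallest two-sided p of an exact permutation test is 0.333, so no such test is given for a single ratio or level. Between the samples of a group, Pearson's r across the tested genes was 0.962 to 0.981. All 8 macrophage markers checked (among them Adgre1, Cd68 and Csf1r) had a mean of at least 1 TPM, and their summed level was 20099 to 20590 TPM in NC, 17938 to 18472 TPM in LPS, 15939 to 16075 TPM in C498 and 12420 to 14208 TPM in C498+LPS.

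By GENCODE M21 on GRCm38, whose gene identifiers cover 97.4% of the tested ones (the build used for the table is not given in the sources used here), 7 of the 10 genes lie on chromosome 17, in the mouse MHC region. H2-K1 lies at chr17:33996017-34000347 on the minus strand and H2-D1 at chr17:35262730-35267499 on the plus strand. Tapbp lies at chr17:33915899-33929292, Tap1 at chr17:34187553-34197225, Psmb8 at chr17:34197721-34201454 and Tap2 at chr17:34203527-34216321, all on the plus strand. Psmb9 lies at chr17:34181987-34187764 on the minus strand. The row Psmb9, Tap1, Psmb8, Tap2 thus spans 34335 bases. B2m lies at chr2:122147686-122153083 on the plus strand, Psmb10 at chr8:105935735-105938444 on the minus strand and Nlrc5 at chr8:94434356-94527272 on the plus strand. All are annotated as protein coding.

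Some of these genes share sequence or position with others. The gene spans of Psmb9 and Tap1 overlap by 212 bases on opposite strands. All 2710 bases of Psmb10 are overlapped by the antisense gene Gm16156, all 5398 bases of B2m lie within the span of Patl2 on the other strand, and Psmb8 and Tap2 overlap the antisense gene Gm20496 over 2139 and 1923 bases. Tap2 also overlaps Gm15821 over 3148 bases and Tapbp overlaps Gm19412 over 1207 bases, both on the other strand. Nlrc5 overlaps 9330175E14Rik on the other strand over 748 bases and Mir7072 on its own strand over 60. Whether reads were counted by strand is not given in the sources used here, so reads of partners on opposite strands cannot be told apart. Tapbp also overlaps Zbtb22 over 3422 bases on the same strand, where counting by strand would not separate them. Of the windows of 150 bases (the read length) along each transcript, 0 of 1470 in H2-K1 were found in a transcript of another gene, against 35 of 1953 (1.79%) in H2-D1, all shared with H2-Q1, and 0 in each of the other 8 genes.

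Promoter sequences are printed for H2-K1, H2-D1 and B2m because these chains differed least between the groups. The Tap1 sequence is printed because by RefSeq it also lies before the start of Psmb9, whose level moved apart from that of Tap1 in LPS. All are RefSeq sequences of GRCm38.p6. Windows from 250 bases before to 50 after the start were available for 8 of the 10 genes and not for Tap2 and Nlrc5. Motifs were searched on both strands: an ISRE core bound by interferon regulatory factors (GAAA, any 2 bases, GAAA), a shorter ISRE form (GAA, any 2 bases, GAAA), a kB site bound by NF-kB (GGGA, any base, T, any 2 bases, CC), the X2 core (TGACG) and Y box (CCAAT) of MHC promoters, and a GAS element bound by STAT factors (TTC, any 3 bases, GAA). In the stretches printed 5′ to 3′ on the strand of the named gene, capitals mark matches to the first 5 of these motifs.
H2-K1: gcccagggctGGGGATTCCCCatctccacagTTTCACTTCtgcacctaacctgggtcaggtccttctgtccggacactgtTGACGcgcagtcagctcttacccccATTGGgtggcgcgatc
H2-D1: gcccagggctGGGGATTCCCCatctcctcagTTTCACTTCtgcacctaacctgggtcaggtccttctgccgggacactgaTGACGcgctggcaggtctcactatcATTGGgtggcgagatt
B2m: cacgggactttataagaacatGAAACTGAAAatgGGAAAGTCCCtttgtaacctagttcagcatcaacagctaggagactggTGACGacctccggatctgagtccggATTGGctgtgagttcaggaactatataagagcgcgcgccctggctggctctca
Tap1: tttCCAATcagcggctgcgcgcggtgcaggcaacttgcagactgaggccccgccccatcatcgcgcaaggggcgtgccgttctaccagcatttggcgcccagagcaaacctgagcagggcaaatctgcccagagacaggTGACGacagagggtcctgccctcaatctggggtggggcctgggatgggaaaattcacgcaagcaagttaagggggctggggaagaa

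The H2-K1 stretch is chr17:34000348-34000468 on the minus strand and the H2-D1 stretch chr17:35262913-35263033 on the plus strand. Aligned over 121 bases they were identical at 108 (89.3%), with the kB, shorter ISRE, X2 and Y box letters in the same order. The B2m stretch, chr2:122147527-122147686, holds the ISRE core before the kB letters, followed by X2 and the Y box. From the first base of TGACG to the first base of ATTGG (the Y box on the other strand) there were 25 bases in H2-K1, in H2-D1 and in B2m, a spacing found in 31 of 32544 promoter windows (0.0953%). The Tap1 stretch, chr17:34187331-34187555, is the whole of the 225 bases between the RefSeq starts of Psmb9 and Tap1. Read on its other strand it lies just before the RefSeq start of Psmb9. The annotations differ here, since by GENCODE M21 this stretch lies within Psmb9, whose span ends at 34187764. The H2-D1 stretch likewise lies within the GENCODE span of H2-D1. The Tap1 stretch holds an X2 core and a Y box and no match to either ISRE form, the kB or the GAS letters. Tapbp matched the Y box alone, Psmb8 the GAS letters alone, 97 bases before its start, and Psmb10 none of the 6. Over all windows the shares with a match were 3.45% for the ISRE core, 7.57% for the shorter ISRE, 4.14% for kB, 20.9% for X2, 37.4% for the Y box and 8.33% for GAS, and the H2-K1 and H2-D1 windows are among 10 of 32544 (0.0307%) that hold kB, shorter ISRE, X2 and Y box together. A match is a description of the letters and was not tested as a binding site.

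In the NC cells, elicited with thioglycollate and given the vehicle, the 10 genes covered a wide range of TPM levels. B2m was the 5th to 6th most abundant of the 55801 genes in the NC samples, with 10685 and 9768 TPM, and by itself took 0.977% to 1.12% of all TPM over the 8 samples. H2-K1 followed at rank 13 and H2-D1 at rank 14. The peptide editor Tapbp had 1033 and 875 TPM in NC. The inducible subunits Psmb8, with 543 and 620 TPM, and Psmb10, with 540 and 564 TPM, were above Psmb9, with 123 and 141 TPM. The transporter gene Tap1 had 167 and 155 TPM and its partner Tap2 75.9 and 80.2 TPM. Nlrc5 was the lowest, with 40.6 and 27.7 TPM. Together the 10 genes made up 2.21% to 2.63% of all TPM. The sum was 2.42% ± 0.04 (SD, n = 2) in NC, 2.57% ± 0.08 in LPS, 2.43% ± 0.02 in C498 and 2.23% ± 0.02 in C498+LPS, and the C498+LPS samples did not overlap with any other group.

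**Figure D1:**
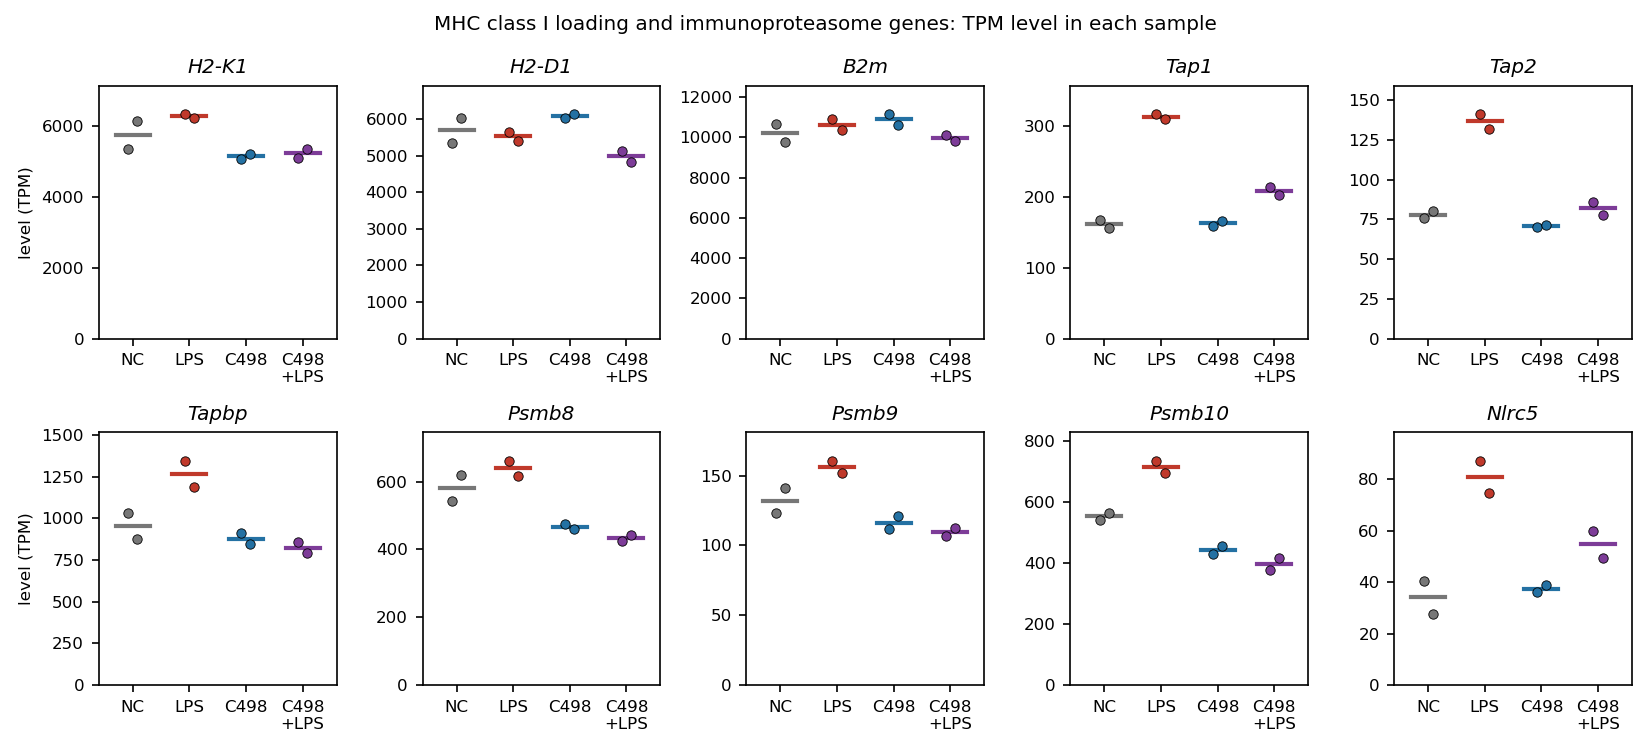
TPM level of each of the 10 genes (vertical axis, from 0, a different scale in each panel) in the 2 samples of NC, LPS, C498 and C498+LPS, with points for samples and a bar for the group mean. Tap1 and Nlrc5 were highest in LPS and next highest in C498+LPS, Tapbp, Psmb8, Psmb9 and Psmb10 were lowest in C498+LPS, and the means of B2m differed by no more than 1.09-fold between any of the groups.

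LPS raised the transporter, the peptide editor, a proteasome subunit and the regulator, while the heavy and light chains were at similar TPM levels with and without it. Against NC, 5 of the 10 genes passed the test and were higher in LPS (Tap1, Tap2, Tapbp, Psmb10 and Nlrc5), where 9.84% of all tested genes did so, and none passed as lower, where 19.8% did so. Nlrc5 was the only DEG among them, against a background of 5.55% of tested genes called higher at that threshold. The median log2 change of the 10 genes was 0.31 and that of all tested genes -0.17. In 7 of the 10 the LPS samples lay above both NC samples without overlap, against 19.3% of tested genes. These are RNA levels of a bulk preparation, in which fewer cells of a type and less RNA per cell cannot be told apart.

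Nlrc5, the regulator, had 87.3 and 74.6 TPM in LPS against 40.6 and 27.7 TPM in NC. Each LPS sample was above both NC samples, and the fold change was 2.36 (95% interval 1.73 to 3.24, limma adjusted p = 0.00355). The DEG call rests on the fold, since without NC replicate 2 no gene of the 10 was a DEG and without NC replicate 1 there were 2.

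Tap1, which encodes a subunit of the peptide pump, reached 316 and 309 TPM in LPS from 167 and 155 TPM in NC. This was the change with the smallest adjusted p of the 10, at 1.94-fold (95% interval 1.69 to 2.22, limma adjusted p = 0.000283), just under the fold of a DEG. Tap2, the other subunit, reached 141 and 132 TPM from 75.9 and 80.2 TPM, which was 1.74-fold (95% interval 1.49 to 2.03, limma adjusted p = 0.00117). In neither gene did the groups come near to overlapping, and both passed the test in all 8 fits that left out 1 sample. The ratio of Tap1 to Tap2 levels was 2.07 ± 0.18 (SD, n = 2) in NC and 2.29 ± 0.07 in LPS.

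Tapbp, the peptide editor, had 1346 and 1186 TPM in LPS against 1033 and 875 TPM in NC. The rise of 1.33-fold (95% interval 1.11 to 1.60, limma adjusted p = 0.0318) passed, although the call was lost in 10 of the alternative fits, with an adjusted p up to 0.185 without LPS replicate 1. Psmb10, with 735 and 696 TPM against 540 and 564 TPM, rose 1.30-fold (95% interval 1.12 to 1.49, limma adjusted p = 0.0174), and its call was lost in 4 of the alternative fits, with an adjusted p up to 0.111. Without either LPS sample the number of genes that passed was 3 in place of 5.

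The other inducible subunits did not pass. Psmb9 had 161 and 152 TPM in LPS and 123 and 141 TPM in NC, 1.18-fold on the fitted scale (95% interval 1.01 to 1.39, limma adjusted p = 0.111), and its samples did not overlap. Its log2 change was 0.15 to 0.34 when 1 sample was left out, and it passed without NC replicate 2 (limma adjusted p = 0.0445). Psmb8 had 662 and 617 TPM in LPS and 543 and 620 TPM in NC, so that the groups overlapped (1.10-fold, 95% interval 0.948 to 1.28, limma adjusted p = 0.301). Tap1 and Psmb9, whose RefSeq starts have 225 bases between them, thus stood in a ratio of 1.23 ± 0.17 (SD, n = 2) in NC and 2.00 ± 0.05 in LPS, without overlap.

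The chains of the class I molecule itself changed least. H2-K1 had 6324 and 6219 TPM in LPS and 5348 and 6141 TPM in NC, 1.09-fold (95% interval 0.942 to 1.27, limma adjusted p = 0.332). H2-D1 had 5659 and 5411 TPM in LPS and 5346 and 6051 TPM in NC, 0.973-fold (95% interval 0.839 to 1.13, limma adjusted p = 0.785), and its log2 change was -0.04 as deposited and 0.13 with each sample centred on its median gene. B2m had 10887 and 10342 TPM in LPS and 10685 and 9768 TPM in NC, 1.04-fold (95% interval 0.901 to 1.20, limma adjusted p = 0.685). As deposited, the intervals of all 3 genes leave out a change of 1.3-fold in either direction. With centring the standard error of the H2-D1 log2 change was 0.20, against 0.09 as deposited, so this limit depends on the scaling. H2-D1 and B2m overlapped between the groups and H2-K1 did not, with the lowest LPS sample only just above the highest NC sample.

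With C498 alone, none of the 10 genes passed the test in either direction (C498 vs NC, limma). Of all tested genes, 9.29% passed as higher and 6.19% as lower. The subunits Psmb10 and Psmb8 had the smallest adjusted p of the 10. Psmb10 had 430 and 457 TPM in C498 against 540 and 564 TPM in NC, a fold of 0.803 (95% interval 0.697 to 0.926, limma adjusted p = 0.0509). Psmb8 had 474 and 460 TPM against 543 and 620 TPM, a fold of 0.804 (95% interval 0.693 to 0.934, limma adjusted p = 0.0599). Both sets of C498 samples lay below both NC samples, and both genes passed without NC replicate 1. Psmb10 also passed with a higher filter on low values or the replicate number as a factor, and Psmb8 also with quantile normalization.

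Of the other genes in C498 vs NC, H2-K1, Tap2 and Psmb9 were lower without overlap, making 5 of 10 against 28.4% of tested genes, with adjusted p from 0.260 to 0.357 (limma). H2-K1 had 5062 and 5205 TPM in C498, Tap2 70.1 and 71.6 TPM and Psmb9 112 and 121 TPM. Tap1, with 159 and 166 TPM in C498, lay between its NC samples of 155 and 167 TPM, and its log2 change of 0.01 turned to -0.11 with centring. H2-D1 had 6031 and 6147 TPM and B2m 11156 and 10635 TPM in C498, with log2 changes of 0.10 and 0.09 that were -0.02 and -0.03 with centring. Tapbp, with 913 and 843 TPM, and Nlrc5, with 36.2 and 38.8 TPM, overlapped with NC. H2-K1 was thus the lower of the heavy chains in C498, with a ratio of H2-K1 to H2-D1 of 0.843 ± 0.005 (SD, n = 2) against 1.01 ± 0.01 in NC.

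Markers of other cells differed with C498. The summed TPM level of 6 fibroblast markers (5 of them at a mean of at least 1 TPM) was 150 to 192 in NC and 176 to 200 in LPS, against 633 to 750 in C498 and 618 to 911 in C498+LPS. That of 5 mesothelial markers was 4.66 to 5.58 TPM in NC, 5 to 5.36 in LPS, 14.8 to 20.9 in C498 and 15.5 to 24.5 in C498+LPS, and none of these markers was at 0 in every sample. The sum of 6 neutrophil markers, of which Ngp was at 0 in every sample, was 82.3 to 135 TPM in NC, 97.3 to 123 in LPS, 52.6 to 55.8 in C498 and 72.1 to 81.6 in C498+LPS. The sum of 5 dendritic cell markers was 0.90 to 2.09 TPM in NC and 0.89 to 1.38 in LPS, against 3.27 to 3.65 in C498 and 3.20 to 4.95 in C498+LPS. That of 5 B cell markers was 3.65 to 4.03 TPM in NC, 4.42 to 4.66 in LPS, 6.02 to 7.52 in C498 and 4.46 to 13.8 in C498+LPS. That of 8 T and NK cell markers, cells in which class I loading genes are also active, was 2.96 to 3.33 TPM in NC, 1.56 to 2.71 in LPS, 2.50 to 3.95 in C498 and 3.70 to 5.29 in C498+LPS. The part of all these markers in the differences between samples with and without C498, and that of the lower macrophage marker sum given above, was not tested.

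With C498 present, Tap1 was the gene of the 10 that passed the test for a change with LPS. It passed as higher in C498+LPS vs C498, where 4.51% of tested genes did so, and none of the 10 passed as lower, where 11.7% did so. Tap1 had 214 and 202 TPM in C498+LPS against 159 and 166 TPM in C498, a fold of 1.28 (95% interval 1.12 to 1.46, limma adjusted p = 0.0298). This call was lost without any 1 sample of LPS, C498 or C498+LPS and without the variance trend, with an adjusted p up to 0.169, and without either NC sample 2 of the 10 passed as higher. Nlrc5 had 60.1 and 49.5 TPM against 36.2 and 38.8 TPM, 1.44-fold (95% interval 1.05 to 1.98, limma adjusted p = 0.108), a larger fold than that of Tap1, and it passed in 4 of the alternative fits, with an adjusted p from 0.0114 to 0.0361 (limma). Tap2 had 86.0 and 78.1 TPM against 70.1 and 71.6 TPM, 1.15-fold (95% interval 0.990 to 1.35, limma adjusted p = 0.182). In these 3 genes the samples did not overlap, against 17.4% of tested genes that were higher without overlap.

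H2-D1, B2m, Psmb8 and Psmb10 had lower levels in C498+LPS than in C498 without overlap, 4 of 10 against 48.8% of tested genes, and none passed the test. H2-D1 had 5134 and 4846 TPM in C498+LPS against 6031 and 6147 TPM in C498 (0.819-fold, 95% interval 0.707 to 0.950, limma adjusted p = 0.0728). Its log2 change of -0.29 passed without either NC sample (limma adjusted p = 0.0405 and 0.0397) and as -0.44 with quantile normalization (0.0142), and was -0.07 with each sample centred on its median gene (0.849). Psmb10 had 375 and 417 TPM against 430 and 457 TPM (0.893-fold, 95% interval 0.775 to 1.03, limma adjusted p = 0.247). Psmb8 had 426 and 444 TPM against 474 and 460 TPM, and B2m 10115 and 9835 TPM against 11156 and 10635 TPM. H2-K1, Tapbp and Psmb9 overlapped. All tested genes together had a median log2 change of -0.18 here, and with each sample centred on its median gene B2m, Tapbp, Psmb8, Psmb9 and Psmb10 turned from lower to higher, with log2 changes of 0.09, 0.12, 0.11, 0.13 and 0.05, so their direction in this comparison depends on the scaling.

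Between the samples that had received LPS, those with C498 had less RNA of the transporter, the editor and the 3 inducible proteasome subunits. In C498+LPS vs LPS, 6 of the 10 genes passed as lower (Tap1, Tap2, Tapbp, Psmb8, Psmb9 and Psmb10), against 7.7% of all tested genes, and none as higher, against 9.08%. None was a DEG, where 2.18% of tested genes were called lower at that threshold, since their folds lay between 0.554 and 0.703. All 10 genes had both C498+LPS samples below both LPS samples, against 30.9% of tested genes, although for B2m the log2 change of -0.09 became 0.12 with quantile normalization. The median log2 change was -0.56 for the 10 genes and 0.01 for all tested genes. C498+LPS vs LPS shares its LPS samples with LPS vs NC, so a gene with high values in those samples moves in opposite directions in the pair of comparisons.

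Psmb10 had the smallest fold of the 10. Its level was 375 and 417 TPM in C498+LPS against 735 and 696 TPM in LPS, 0.554-fold (95% interval 0.481 to 0.639, limma adjusted p = 0.00149), and its mean was 44.6% lower. Its C498+LPS samples were also below both NC samples, at 540 and 564 TPM. Psmb8 had 426 and 444 TPM against 662 and 617 TPM, 0.681-fold (95% interval 0.587 to 0.791, limma adjusted p = 0.00826). Psmb9 had 107 and 113 TPM against 161 and 152 TPM, 0.703-fold (95% interval 0.597 to 0.828, limma adjusted p = 0.0152). For these subunits too the C498+LPS samples were below both NC samples, a contrast that was not tested.

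Tap2 had 86.0 and 78.1 TPM in C498+LPS against 141 and 132 TPM in LPS, 0.603-fold (95% interval 0.517 to 0.703, limma adjusted p = 0.00321), and the C498+LPS samples overlapped with those of NC. Tap1 had 214 and 202 TPM against 316 and 309 TPM, 0.666-fold (95% interval 0.582 to 0.762, limma adjusted p = 0.00437), and stayed above both its NC samples. Tapbp had 855 and 792 TPM against 1346 and 1186 TPM, 0.651-fold (95% interval 0.542 to 0.783, limma adjusted p = 0.0117). Tap1, Tap2 and Psmb10 passed in all 8 fits that left out 1 sample. Without LPS replicate 1 the number that passed fell to 3, since Tapbp, Psmb8 and Psmb9 then had adjusted p of 0.0934, 0.0727 and 0.108 (limma). The call of Psmb9 was lost without any 1 of the 4 samples compared, with an adjusted p of 0.0707 to 0.108, and that of Tapbp also without C498+LPS replicate 2, with an adjusted p of 0.0885 (limma).

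Nlrc5 had 60.1 and 49.5 TPM in C498+LPS against 87.3 and 74.6 TPM in LPS, 0.680-fold (95% interval 0.496 to 0.931, limma adjusted p = 0.0974), and it passed in 4 of the alternative fits. H2-K1 had 5096 and 5342 TPM against 6324 and 6219 TPM, 0.832-fold (95% interval 0.716 to 0.966, limma adjusted p = 0.0963), and it passed in 3 of the alternative fits, with an adjusted p from 0.0136 to 0.0453. H2-D1, with 5134 and 4846 TPM against 5659 and 5411 TPM (limma adjusted p = 0.315, and 0.0437 with quantile normalization, which moved its log2 change from -0.15 to -0.31), and B2m, with 10115 and 9835 TPM against 10887 and 10342 TPM (limma adjusted p = 0.549), had means 9.84% and 6.03% lower. The fibroblast, mesothelial, dendritic cell and T and NK cell marker sums given above were higher in C498+LPS than in LPS without overlap, and the macrophage and neutrophil marker sums were lower.

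**Figure D2:**
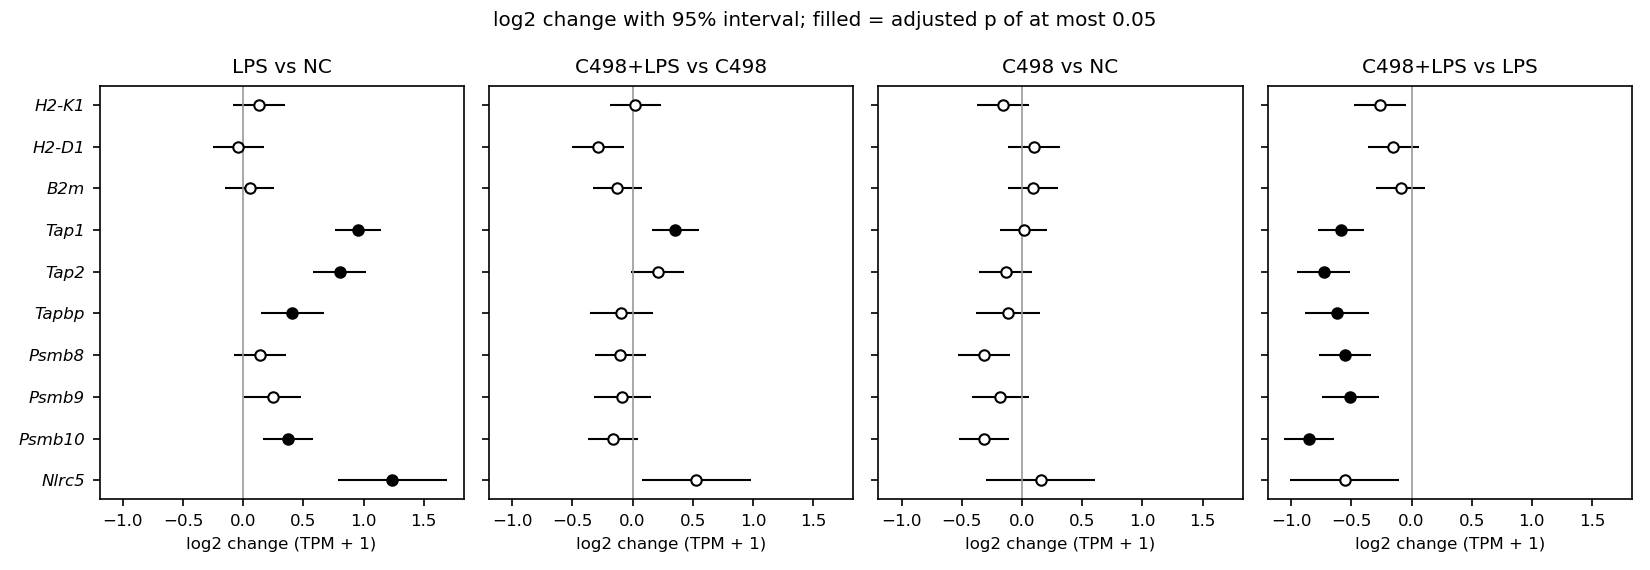
Log2 change of each of the 10 genes with its 95% interval in 4 panels, from left to right LPS vs NC, then C498+LPS vs C498, then C498 vs NC and then C498+LPS vs LPS (horizontal axes, log2(TPM + 1)), with filled points for an adjusted p of at most 0.05 in limma. Filled points number 5, 1, 0 and 6 in these panels, and the points of B2m and H2-D1 stay within 0.3 of 0 throughout.

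The difference between the LPS effects with and without C498 was tested as the interaction. All 10 estimates were negative, from -0.71 for Nlrc5 to -0.11 for H2-K1, with a median of -0.42 against -0.03 for all tested genes, and remained negative with centring and with quantile normalization. None of the 10 passed the test (limma), where 0.418% of tested genes passed as lower and 0.0738% as higher. Tap1 had the smallest adjusted p, 0.104, with a log2 difference of -0.60 (95% interval -0.88 to -0.33). Those of Tap2 (-0.59, limma adjusted p = 0.154) and Psmb10 (-0.54, limma adjusted p = 0.158) were of like size. So these data do not show for any of the 10 genes that C498 altered the change with LPS at the threshold used.

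**Figure D3:**
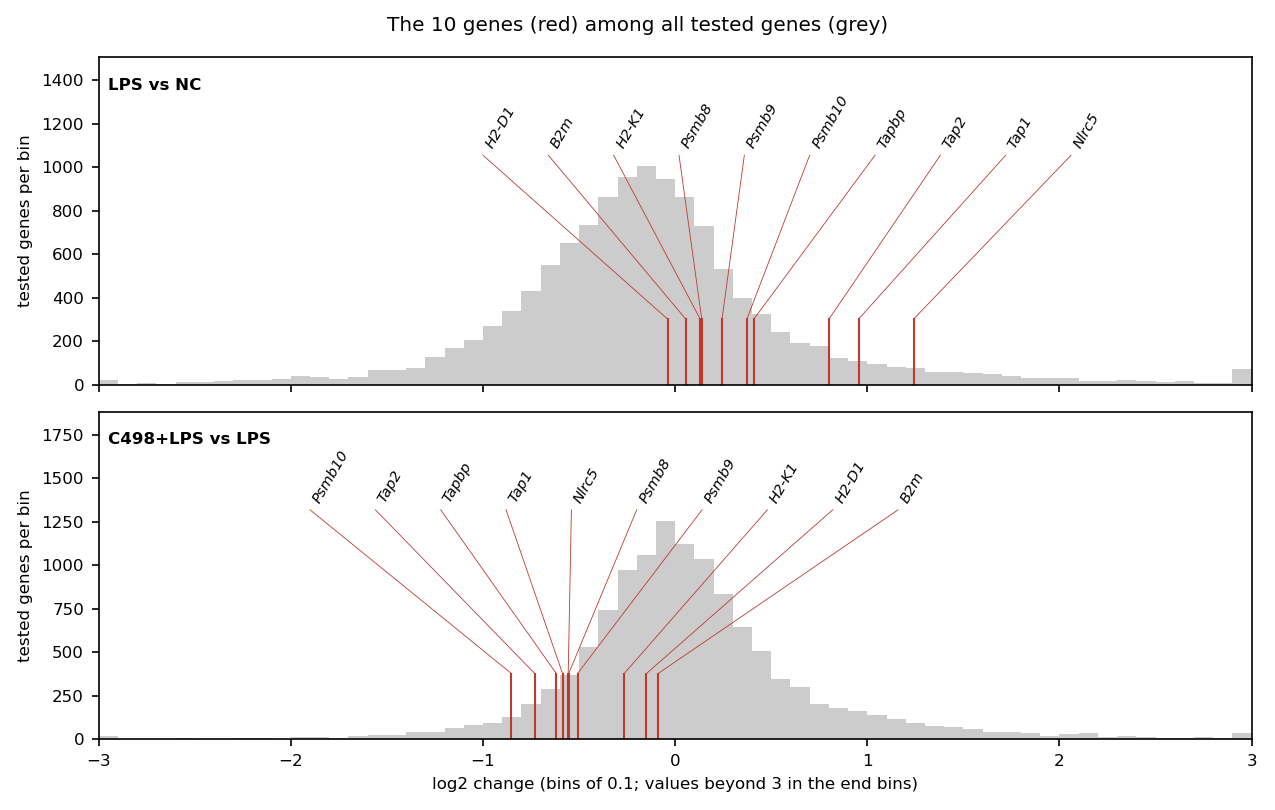
Number of tested genes (vertical axes) by log2 change in bins of 0.1 (horizontal axis, values beyond 3 in the end bins) in LPS vs NC (upper panel) and C498+LPS vs LPS (lower panel), with red lines for the 10 genes. The genes range from -0.04 to 1.24 in the upper panel and from -0.85 to -0.09 in the lower, where B2m, the gene nearest 0, becomes 0.12 with quantile normalization.

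Set beside the constitutive subunits they replace, the 3 inducible subunits behaved differently from each other. Psmb10 stood at 2.81 ± 0.08 (SD, n = 2) times the level of Psmb7 in NC, 3.17 ± 0.10 in LPS, 2.45 ± 0.11 in C498 and 1.88 ± 0.07 in C498+LPS, and no pair of groups compared here overlapped. Psmb7 itself had 196 and 197 TPM in NC, 227 and 225 TPM in LPS, 181 and 181 TPM in C498 and 205 and 216 TPM in C498+LPS, and its log2 change in C498+LPS vs LPS was -0.10 (limma adjusted p = 0.426). Psmb8 stood at 1.06 ± 0.02 times the level of Psmb5 in NC, 1.26 ± 0.11 in LPS, 1.11 ± 0.08 in C498 and 1.22 ± 0.03 in C498+LPS, and its samples overlapped between LPS and C498+LPS and between NC and C498. Psmb5 fell in C498+LPS vs LPS as Psmb8 did, from 493 and 522 to 356 and 358 TPM (log2 change -0.51, limma adjusted p = 0.0151), and it fell in C498 vs NC, from 505 and 594 to 407 and 439 TPM (log2 change -0.37, limma adjusted p = 0.0458). Both calls of Psmb5 were lost in some alternative fits, with an adjusted p up to 0.107 without LPS replicate 2 in the first comparison and up to 0.244 without C498 replicate 1 in the second (limma).

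Psmb9 stood lower against its counterpart after LPS. Its ratio to Psmb6 was 0.177 ± 0.002 (SD, n = 2) in NC and 0.132 ± 0.018 in LPS, and 0.163 ± 0.004 in C498 and 0.133 ± 0.004 in C498+LPS, so it was lower with LPS in both settings without overlap. Psmb6 had 701 and 790 TPM in NC and 1110 and 1268 TPM in LPS, and rose 1.59-fold (95% interval 1.36 to 1.87, limma adjusted p = 0.00269). In C498+LPS vs LPS it fell to 820 and 825 TPM (0.694-fold, limma adjusted p = 0.0122, lost without LPS replicate 2 at 0.0928), so that the Psmb9 to Psmb6 ratio overlapped between these groups.

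**Figure D4:**
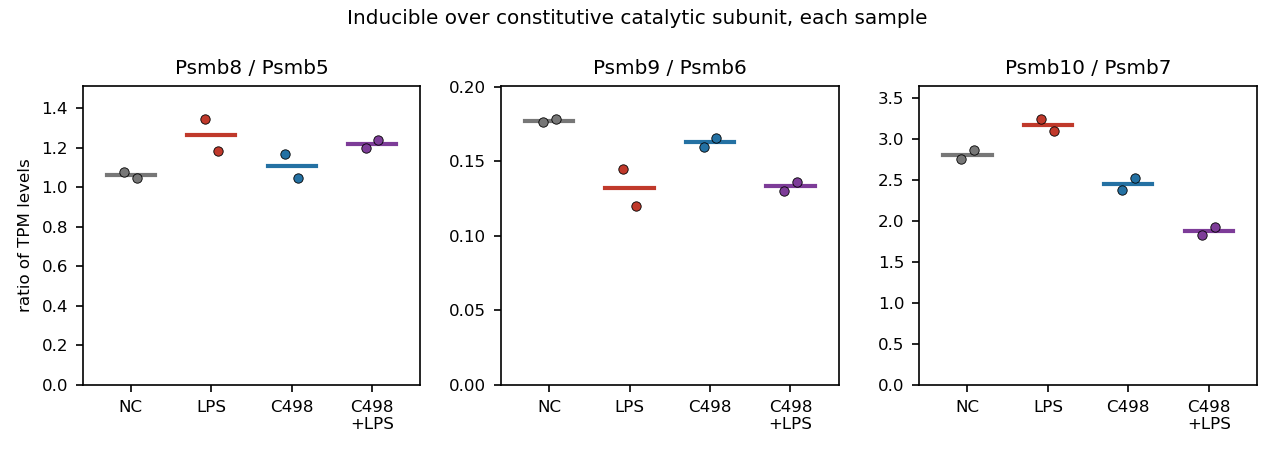
Ratio of TPM levels of Psmb8 to Psmb5, Psmb9 to Psmb6 and Psmb10 to Psmb7 (vertical axes, from 0) in the 2 samples of each group, with points for samples and a bar for the mean. Psmb10 to Psmb7 is lowest in C498+LPS at 1.83 and 1.93, and Psmb9 to Psmb6 is lower in both groups that received LPS than in NC and C498.

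Ratios were also taken within the class I molecule and within the transporter. The summed heavy chains H2-K1 and H2-D1 stood at 1.12 ± 0.17 (SD, n = 2) times the level of B2m in NC, 1.11 ± 0.02 in LPS, 1.03 ± 0.05 in C498 and 1.02 ± 0.02 in C498+LPS, and the samples of C498+LPS were below those of LPS. Tap1 stood at 2.30 ± 0.04 times Tap2 in C498 and 2.54 ± 0.07 in C498+LPS. Its ratio to Psmb9 was 1.40 ± 0.03 in C498 and 1.90 ± 0.15 in C498+LPS, and this ratio overlapped between LPS and C498+LPS. Over the 4 groups the highest mean exceeded the lowest 2.37-fold for Nlrc5, 1.94-fold for Tap1, 1.93-fold for Tap2, 1.80-fold for Psmb10, 1.54-fold for Tapbp, 1.47-fold for Psmb8, 1.43-fold for Psmb9, 1.22-fold for H2-K1 and H2-D1 and 1.09-fold for B2m.

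The order of the group means differed between the genes. Tapbp, Psmb8, Psmb9 and Psmb10 had the order LPS, NC, C498, C498+LPS from high to low, where LPS and NC overlapped for Psmb8, NC and C498 for Tapbp, and C498 and C498+LPS for Tapbp and Psmb9. Tap1 and Nlrc5 had the order LPS, C498+LPS, C498, NC, of which C498 and NC overlapped in both. Tap2 had the order LPS, C498+LPS, NC, C498 and H2-K1 the order LPS, NC, C498+LPS, C498. H2-D1 and B2m were highest in C498 and lowest in C498+LPS. In both genes C498 overlapped with NC and LPS with NC, and in B2m C498 also overlapped with LPS and C498+LPS with NC.

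Across the 8 samples the genes varied together to different degrees, which is given as a description because the samples share their groups and libraries. Pearson's r on log2(TPM + 1) was highest for Psmb9 and Psmb10 (0.978), Psmb8 and Psmb10 (0.959), H2-K1 and Psmb9 (0.959), Tap1 and Nlrc5 (0.958), Psmb8 and Psmb9 (0.955) and Tap1 and Tap2 (0.954). H2-D1 had negative r to Nlrc5 (-0.46) and Tap1 (-0.36). To the mean of the 10 standardized genes, of which each is a part, r was 0.951 for Tapbp and 0.945 for Psmb10 and down to 0.327 for B2m and 0.194 for H2-D1.

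The genes outside the 10 with a profile most like that mean were Parp10 (r = 0.979 over 8 samples), Zcrb1 (0.965), 1700052K11Rik (0.961), Cfb (0.960), Scarf1 (0.956), Fbxw17 (0.956), Ap3b1 (0.955) and Rpl35a-ps4 (0.954). Parp10 had 89.0 and 88.0 TPM in LPS, 49.9 and 49.6 TPM in NC, 47.8 and 42.7 TPM in C498 and 35.2 and 37.7 TPM in C498+LPS. Cfb, complement factor B, had 1358 and 1212 TPM in LPS, 943 and 953 TPM in NC, 740 and 742 TPM in C498 and 659 and 604 TPM in C498+LPS. Rpl35a-ps4, a ribosomal protein pseudogene whose reads may stem from its parent gene, was at 0 in every sample but the LPS ones. For single genes the closest profiles were N4bp1 for Nlrc5 (r = 0.999), Taf11 for H2-K1 (0.996), Rnf225 for Tap1 (0.996) and Lmo4 for Tap2 (0.990). Esrra followed for Psmb8 (0.986), Mfsd8 for Tapbp (0.985), Mvp for Psmb10 (0.980), 1700052K11Rik for Psmb9 (0.972), B430218F22Rik for H2-D1 (0.961) and Ralgapb for B2m (0.954). Some were near the floor, with Rnf225 at 0.05 and 0.02 TPM in NC and 1700052K11Rik at no more than 1.46 TPM in any sample. Each was picked for the highest r among many tested genes over 8 samples, so the size of r shows no link.

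The other class I heavy chains include nonclassical genes of the Q, T and M regions. Of 18 listed, 15 were tested. Counts in this and the following lists stand against shares of all tested genes that passed as higher and as lower of 9.84% and 19.8% in LPS vs NC and of 9.29% and 6.19% for C498 vs NC, and likewise of 4.51% and 11.7% with C498+LPS vs C498 and of 9.08% and 7.7% with C498+LPS vs LPS. Nothing is read from counts near these shares. In LPS vs NC 4 passed as higher and 2 as lower, and the DEGs were H2-M2, which rose 3.52-fold to 264 and 228 TPM from 77.6 and 61.2 TPM (limma adjusted p = 0.000551), and Mr1, which presents vitamin B metabolites to MAIT cells and fell to 3.74 and 3.40 TPM from 13.1 and 9.24 TPM (log2 change -1.40, limma adjusted p = 0.00339). In C498 vs NC 0 passed as higher and 2 as lower, and in C498+LPS vs C498 1 and 4. In C498+LPS vs LPS 0 passed as higher and 6 as lower, and the median log2 change of the 15 was -0.54.

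The DEGs of that last comparison were H2-T24, at 33.6 and 29.7 TPM against 77.0 and 74.1 TPM in LPS (log2 change -1.23, limma adjusted p = 0.00116), Cd1d1, which presents lipids to NKT cells and was at 21.7 and 20.3 TPM against 51.7 and 49.3 TPM (log2 change -1.23, limma adjusted p = 0.0014), and H2-M2, at 132 and 95.1 TPM against 264 and 228 TPM (log2 change -1.12, limma adjusted p = 0.00736). Whether reads of these genes are shared with others was not tested.

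The chaperones and trimming enzymes of the endoplasmic reticulum that serve class I molecules were all 11 tested. Passing as higher and lower were 1 and 0 in LPS vs NC, 2 and 0 in C498 vs NC, then 0 and 0 in C498+LPS vs C498 and last 2 and 1 in C498+LPS vs LPS. The only DEG was Hspa5, the general chaperone BiP, at 792 and 722 TPM in C498 against 369 and 312 TPM in NC (log2 change 1.15, limma adjusted p = 0.000899). Of the 12 proteasome activators, assembly factors and constitutive subunits, 2 passed as higher and 2 as lower in LPS vs NC, 0 and 1 in C498 vs NC, then 0 and 0 in C498+LPS vs C498 and last 0 and 3 in C498+LPS vs LPS, with no DEG. Psme2, a subunit of the PA28 activator, went from 648 and 683 TPM in NC to 944 and 957 TPM in LPS and was at 638 and 656 TPM in C498+LPS, with log2 changes of 0.51 (LPS vs NC, limma adjusted p = 0.0141) and -0.55 (C498+LPS vs LPS, limma adjusted p = 0.0171). It was named after its values were seen.

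All 17 listed transcription factors of class I genes were tested. In LPS vs NC 5 passed as higher and 1 as lower, with Nfkb1 (log2 change 2.08), Irf1 (1.58) and Rela (1.13) as DEGs. In C498 vs NC 3 and 1 passed, with Irf1 as the DEG, and in C498+LPS vs C498 4 and 0, with Nfkb1 and Irf8 as DEGs. In C498+LPS vs LPS 1 passed as higher and 4 as lower. The higher one was the DEG Irf8, at 299 and 270 TPM against 118 and 93.0 TPM (log2 change 1.43, limma adjusted p = 0.0012). The lower ones included Irf2 (log2 change -0.61, limma adjusted p = 0.0221), Irf9 (-0.52) and Irf7 (-0.49), named after their values were seen.

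Irf1, a factor through which interferons activate class I genes, had 166 and 157 TPM in NC and 527 and 446 TPM in LPS. It had 389 and 359 TPM in C498 and 612 and 553 TPM in C498+LPS, where its level was highest. Its log2 change of 0.26 in C498+LPS vs LPS did not pass (limma adjusted p = 0.149).

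Of the 10 listed MHC class II genes, which display peptides from outside the cell, 9 were tested. Passing as higher and lower were 0 and 1 in LPS vs NC, 0 and 0 in C498 vs NC, then 0 and 2 in C498+LPS vs C498 and last 0 and 1 in C498+LPS vs LPS, with no DEG. The deposited annotation puts 80 genes into the KEGG term antigen processing and presentation, 6 of them among the 10 genes described here. Of the other 74, 47 were tested. Of these 9 passed as higher and 3 as lower in LPS vs NC, 9 and 1 in C498 vs NC, then 3 and 6 in C498+LPS vs C498 and last 9 and 7 in C498+LPS vs LPS. The 4 DEGs with the largest change in C498 vs NC were the heat shock genes Hspa1a (log2 change 3.79) and Hspa1b (3.53), the interferon gene Ifng (2.87) and Hspa5. Ifng, whose protein is a known inducer of the 10 genes, had 0.88 and 1.15 TPM in NC, 5.65 and 5.22 TPM in LPS, 12.7 and 14.7 TPM in C498 and 25.9 and 48.0 TPM in C498+LPS. Its levels were highest in C498+LPS, where the mean levels of H2-D1, B2m, Tapbp, Psmb8, Psmb9 and Psmb10 were the lowest of the 4 groups, those of Tap1, Tap2 and Nlrc5 were next to the highest, and that of H2-K1 was next to the lowest. In the interaction 1 of the 47 passed, Tnf (log2 difference -1.70, limma adjusted p = 0.00931), and none of the other 5 lists had a gene that passed.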

How the data were processed

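RNA of 8 samples (2 each of NC, LPS, C498 and C498+LPS) was analysed from the deposited table. Per the paper's methods and the labels, the authors sequenced on an Illumina NovaSeq with 150-base paired reads, filtered with fastp, aligned with HISAT2, assembled with StringTie and quantified with RSEM; versions and genome build are not given in the sources used here. The authors deposited TPM per gene with 2 decimals, and their group means, which were not used. Their counts and DESeq2 test were not repeated, since TPM are not counts and the depth is unknown.

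Here log2(TPM + 1) of the 12189 genes with a mean of at least 1 TPM was fitted with limma 3.58.1 (R 4.3.3; group means, all 8 samples, moderated variances with a trend), with Benjamini-Hochberg adjustment within each comparison. Columns were matched to samples by their titles. The steps were tested on simulated data. Other calculations used pandas 2.3.3 and scipy 1.17.1, and figures matplotlib 3.10.9.

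The 10 genes and the lists were chosen with earlier results of these data known. Named were all 10 genes, Psmb5, Psmb6 and Psmb7, of each list up to 4 DEGs with the largest change, and the 8 most alike genes. Replicate numbers were checked as pairs: deviations from group means correlated at 0.0397 to 0.168 between groups, not above 0.1 throughout, so they were not treated as pairs. Alternatives were a pseudocount of 0.1, no filter or a mean of at least 5 TPM, centring, quantile normalization, fewer groups in the fit, no variance trend, a replicate block, no fold threshold, H2-K1 and H2-D1 summed, and leaving out each sample. Of the list of transcription factors, 1 gene is counted and its values are not reported here.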

Additional observations from a re-analysis of the deposited data

Results flagged for a closer look

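Psmb10 moved in opposite directions with LPS in the cells without and with C498, in every sample. Its log2 change was 0.37 in LPS vs NC, with the LPS samples above those of NC, and -0.16 in C498+LPS vs C498, where both C498+LPS samples were below both C498 samples. The first passed the test (limma adjusted p = 0.0174) and the second did not (limma adjusted p = 0.247). The difference between them, -0.54 (95% interval -0.83 to -0.25), had an unadjusted p of 0.0031 and did not pass the test over all genes (limma adjusted p = 0.158). With each sample centred on its median gene the second change was 0.05, so the opposite direction depends on the scaling. In C498+LPS vs C498, 48.8% of all tested genes were lower without overlap, and their median log2 change, taken over all tested genes, was -0.18. A fall of this size was thus not particular to Psmb10.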

How the results depend on the processing

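Genes passing as higher in LPS vs NC numbered 5, and 3 with only the compared groups fitted or without the variance trend (3 to 5 when 1 sample was left out). DEGs there numbered 1, 2 with centring, 5 with no fold threshold and 0 to 2 when 1 sample was left out. In C498 vs NC, 0 passed as lower, and 1 did with a mean of at least 5 TPM, with quantile normalization and with the replicate block (0 to 2 when 1 sample was left out). In C498+LPS vs C498, 1 passed as higher, 2 with centring or quantile normalization and 0 without the variance trend (0 to 2 when 1 sample was left out, 2 without either NC sample), and 0 passed as lower, 1 with quantile normalization (0 to 1), while the DEGs went from 0 to 1 with no fold threshold. In C498+LPS vs LPS, 6 passed as lower, 8 with quantile normalization and 3 to 8 when 1 sample was left out, and DEGs went from 0 to 6 with no fold threshold. The replicate block gave 5, 1 and 7 calls in LPS vs NC, C498+LPS vs C498 and C498+LPS vs LPS, where the fit without it gave 5, 1 and 6. The samples were not treated as pairs, and the labels do not say whether the replicate numbers pair them. The interaction had 0 calls in every fit.

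Signs that turned belonged to changes that did not pass. With centring these were H2-D1 in LPS vs NC (0.13), H2-D1 (-0.024), B2m (-0.030) and Tap1 (-0.11) in C498 vs NC, and B2m (0.087), Tapbp (0.12), Psmb8 (0.11), Psmb9 (0.13) and Psmb10 (0.052) in C498+LPS vs C498. With quantile normalization they were H2-K1 (-0.13) and B2m (0.12) in C498+LPS vs C498 and B2m in C498+LPS vs LPS (0.12). With H2-K1 and H2-D1 summed they were H2-D1 in LPS vs NC (0.048) and in C498 vs NC (-0.025) and H2-K1 in C498+LPS vs C498 (-0.14). When 1 sample was left out, the range of the log2 change crossed 0 for H2-D1 (-0.13 to 0.050) and B2m (-0.010 to 0.12) in LPS vs NC, for Tap1 (-0.036 to 0.065), Tapbp (-0.24 to 0.0044) and Nlrc5 (-0.11 to 0.42) in C498 vs NC and for H2-K1 in C498+LPS vs C498 (-0.010 to 0.058). The cause was not tested. With 1 sample left out, the remaining sample of the group is assumed to vary like the other groups. Depth is unknown, and 2 samples a group limit what can pass.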
